A study of Mus musculus with 4 samples.

Results

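The UDP-glucuronosyltransferase genes were followed in Hepa1-6 cells, an established line from a mouse liver tumour, after knockdown of the histone H3 lysine 9 methyltransferase Setdb1. The members were the 10 genes whose row names carried the symbols Ugt1a1, Ugt1a2, Ugt1a5, Ugt1a6a, Ugt1a6b, Ugt1a7c, Ugt1a9, Ugt2b34, Ugt2b35 or Ugt2b36, out of 54838 gene rows. Knockdown cells carried an shRNA labelled shSet (genotype label Setdb1 knockdown), and control cells carried an shRNA labelled shNC (genotype label Setdb1 wild type). All were Hepa1-6 cells expressing an shRNA, with 2 RNA-seq libraries of total RNA per group, called knockdown 1 and 2 and control 1 and 2 after their labelled numbers. The series' design text calls the cells subclones and gives no number of clones, so a difference between clones and an effect of the shRNA cannot be told apart.

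UDP-glucuronosyltransferases are enzymes of the endoplasmic reticulum that join glucuronic acid, taken from UDP-glucuronate, to bilirubin, steroids, bile acids, drugs and plant phenols, which makes them soluble enough for bile and urine. The liver is a main site of this conjugation. The Ugt1a genes form one complex locus in which each gene has its own first coding exon, spliced to a common set of last exons. The first exon encodes the part of the enzyme that holds the substrate and the common exons the part that holds UDP-glucuronate. The Ugt2b genes are separate genes in a cluster on another chromosome.

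The layout of the Ugt1a locus sets what the reads can tell. In GENCODE M21 (GRCm38, plus strand) the 7 Ugt1a members lie within chr1:88070800-88220002, and all 7 reference transcripts end in the same 4 exons, whose shared part measures 1311 bases. Their own first exons are between 879 bases long in Ugt1a9 and 954 bases in Ugt1a6a. The stretches where the first exon meets the shared exons are shown because a read that ends in the shared exons can be tied to a gene only across them. The 25 lower-case bases end the gene's own exon and the 25 capitals begin the shared exon at position 88215044.
Ugt1a9: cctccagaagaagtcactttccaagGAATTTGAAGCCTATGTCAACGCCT
Ugt1a7c: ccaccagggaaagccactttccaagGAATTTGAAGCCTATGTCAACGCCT
Ugt1a6b: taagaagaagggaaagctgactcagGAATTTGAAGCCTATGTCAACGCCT
Ugt1a6a: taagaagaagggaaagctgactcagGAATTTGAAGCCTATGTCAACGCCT
Ugt1a5: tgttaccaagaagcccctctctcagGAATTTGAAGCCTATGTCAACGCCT
Ugt1a2: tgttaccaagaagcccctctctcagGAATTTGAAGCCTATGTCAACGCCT
Ugt1a1: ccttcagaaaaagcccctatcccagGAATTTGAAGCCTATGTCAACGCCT
The capitals are identical in all 7, and the 7 members gave only 5 distinct junctions. Ugt1a6a and Ugt1a6b had the same 50 bases, and so did Ugt1a2 and Ugt1a5. Over the coding part of the own exon, Ugt1a6a and Ugt1a6b were 97.0% identical (832 of 858 aligned bases). Ugt1a2 and Ugt1a5 were 81.4% identical and Ugt1a7c and Ugt1a9 80.6%, and Ugt1a1 was 54.7% to 58.2% identical to each of the others.

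**Figure D1:**
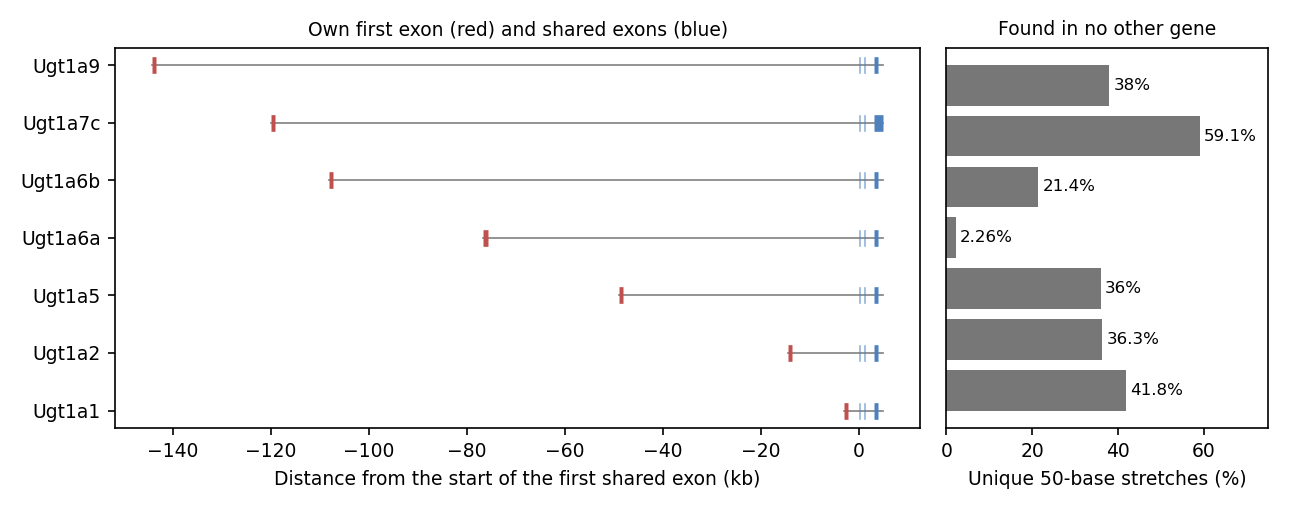
Left, the own first exon (red) and the shared exons (blue) of the reference transcript of each Ugt1a member, to scale, by distance in kb from the first shared exon. Right, the percentage of 50-base stretches of each transcript found in no other annotated gene, from 2.26% for Ugt1a6a to 59.1% for Ugt1a7c.

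Of all stretches of 50 bases in the reference transcript, 2.26% were found in no other gene for Ugt1a6a, against 21.4% for Ugt1a6b, 36.0% for Ugt1a5, 36.3% for Ugt1a2, 38.0% for Ugt1a9, 41.8% for Ugt1a1 and 59.1% for Ugt1a7c (same strand only). The length of 50 bases was a setting not taken from the reads, so these percentages describe the annotated sequences and not what the reads could resolve. In this annotation a second transcript filed under Ugt1a7c uses the Ugt1a6b leader exon of 127 bases, the Ugt1a6a coding exon of 859 bases and then the shared exons. Stretches within that coding exon therefore did not count as unique to Ugt1a6a. The Ugt1a7c reference transcript and this second transcript also run 1005 bases past the end of the exons shared by all 7. The Ugt2b members are far more distinct, with 97.9% of stretches in no other gene for Ugt2b34, 99.3% for Ugt2b35 and 99.7% for Ugt2b36. Ugt2b34 (chr5:86889767-86906937, minus strand), Ugt2b35 (chr5:87000860-87013275, plus strand) and Ugt2b36 (chr5:87065927-87092555, minus strand) each have 6 exons. The coding sequence of Ugt2b34 was 71.7% identical to that of Ugt2b35 and 72.5% to that of Ugt2b36, and Ugt2b35 was 88.3% identical to Ugt2b36.

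The libraries held between 19513567 and 19615440 expected counts, the estimates of reads per gene that the program RSEM gives, and levels are given as CPM, the counts scaled to the same total in each library. Setdb1 had 10.96 and 8.585 CPM in the knockdown libraries, against 51.17 and 59.43 CPM in the controls, a log2 fold change of -2.49 (edgeR adjusted p = 0.0001495). The quasi-likelihood test of edgeR, run on 12821 genes with enough counts, called 538 higher and 226 lower in the knockdown (threshold 0.05 for the adjusted p); without control 1 it called 981 higher and 695 lower. No label states separate cultures for the libraries of a group. The p-values therefore measure the spread between these samples only, and that spread may be technical.

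Marker genes of liver and other cell types also differed between the groups. Of 10 hepatocyte markers, 4 stayed under 1 CPM in every library (Ttr, Apoa1, Serpina1a and Ahsg), and of the 7 tested, 2 rose and 2 fell. Those that rose were albumin (log2 fold change 0.94, adjusted p = 0.005634) and Fgb, a fibrinogen chain (1.09, adjusted p = 0.01225). Those that fell were Apob, the main protein of very low density lipoprotein (-0.75, adjusted p = 0.01221), and Hnf4a, described further on. The 10 hepatocyte markers summed to 2887 to 3253 CPM in the knockdown libraries and 2243 to 2390 CPM in the controls, most of it albumin, Afp and Trf.

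Of the 4 cholangiocyte markers, all tested, Epcam rose (log2 fold change 1.06, edgeR adjusted p = 0.009193) and 3 did not pass. These were Krt19 at 1.75 (edgeR adjusted p = 0.1181), Krt7 at 0.80 (0.05848) and Sox9 at -0.37 (0.1645). All 4 had an unadjusted p under 0.05 in edgeR. Their sum, most of it Sox9, was 80.7 to 85.24 CPM in the knockdown libraries and 77.64 to 78.83 CPM in the controls. Of the 4 fibroblast markers 3 were tested and Col1a1 rose, with 60 and 79 counts in the knockdown libraries and 16 and 15 in the controls (log2 fold change 2.17, adjusted p = 0.006523), while Col1a2 had 0 and 0 counts in the knockdown and 0 and 1 in the controls. Their sum, nearly all Dcn, was 1634 to 1670 CPM in the knockdown libraries and 1452 to 1568 CPM in the controls. The 4 leukocyte and macrophage markers summed to 17.11 to 19.24 CPM in the knockdown libraries and 7.441 to 10.09 CPM in the controls. Cd68 had 227 and 189 counts in the knockdown and 120 and 120 in the controls. Csf1r had 100.56 and 180.58 counts in the knockdown and 73.82 and 25.2 in the controls, and Adgre1 5 and 3 against 0 and 0. The pan-leukocyte gene Ptprc had 3 and 4 counts in the knockdown and 4 and 0 in the controls, with overlap. The 3 endothelial markers summed to 1.073 to 2.09 CPM in the knockdown libraries and 0.41 to 0.5102 CPM in the controls. Of these last lists 2 leukocyte and macrophage markers and 1 endothelial marker were tested, and edgeR called 0 of them, all 3 having an unadjusted p under 0.05; DESeq2 called 1 leukocyte and macrophage marker higher. No marker was at 0 in all 4 libraries. The part of these differences in the results on the members was not tested, and the marker genes were named after their values were seen.

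Most of the tested members rose with the knockdown. Of the 10 members 5 had enough counts to test, and of these Ugt1a6a, Ugt1a6b, Ugt2b34 and Ugt2b35 rose, 0 fell and Ugt1a7c did not pass. Over all genes tested, 4.20% were called higher and 1.76% lower. The median log2 fold change was 1.19 over the 5 tested members, against -0.005 over all genes tested. A low-count member can reach the test through its level in 1 group. Ugt1a6a, at 0.585 and 0 CPM in the controls, reached it only with its level in the knockdown libraries. Its call is therefore no support for a rise of the family. The count of called members and the median speak for these 5 and not for the family. Ugt1a6a and Ugt1a6b have the same junction, and the coding parts of their own exons are 97.0% identical. Their calls are therefore not taken as separate pieces of evidence.

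Ugt2b34 carried most of the family's RNA. It had 3490 and 3607 expected counts in the knockdown libraries, against 1461 and 1682 in the controls, all whole numbers. Both knockdown libraries were above both controls, and the groups were far apart next to the gap within each. Its level was 181 ± 4.53 CPM in knockdown cells and 80.4 ± 8.24 CPM in control cells (SD, n = 2 each), a log2 fold change of 1.19 (SE 0.135, edgeR adjusted p = 0.001206), or 2.28-fold (95% interval 1.85 to 2.81). In this bulk RNA a change in the share of cells that express the gene and a change in RNA per cell cannot be told apart.

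Ugt2b35 moved in the same direction at a lower level. It had 2088 and 2237 counts in the knockdown libraries, against 1002 and 1172 in the controls, again all whole. The groups did not overlap, and the same held for the 4 members called. Over all tested genes the groups did not overlap in 51.9%, with 25.4% higher and 26.5% lower in the knockdown. Its level was 110 ± 5.56 CPM in knockdown cells and 55.6 ± 6.32 CPM in control cells, a log2 fold change of 1.01 (SE 0.142, adjusted p = 0.003845), or 2.01-fold (95% interval 1.61 to 2.50). Per unit of transcript length, Ugt2b34 stood at 79.6 ± 2.01 TPM in knockdown and 36.5 ± 4.02 TPM in control cells, and Ugt2b35 at 43.8 ± 2.26 TPM in knockdown and 22.8 ± 2.80 TPM in control cells (TPM, counts divided by transcript length and scaled to the same total in each library). The ratio of Ugt2b34 to Ugt2b35 TPM was 1.85 and 1.79 in the knockdown libraries and 1.62 and 1.59 in the controls. The ratio was thus a little higher in both knockdown libraries, and the intervals of the 2 fold changes overlap; the difference between them was not tested.

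Ugt2b36, whose coding sequence is the closest to that of Ugt2b35, was hardly detected. It had 0 and 2 counts in the knockdown libraries and 1 and 1 in the controls. Both groups were under a floor of 3 counts per library, about 0.153 CPM, so no fold is given. Together the 3 Ugt2b members had 284.4 and 298.7 CPM in the knockdown libraries and 125.7 and 146.3 CPM in the controls, 2.14 times as much in the knockdown. Ugt2b34 and Ugt2b35 made up 97.0% and 97.1% of the TPM of all 10 members in the knockdown libraries and 96.8% and 98.6% in the controls.

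**Figure D2:**
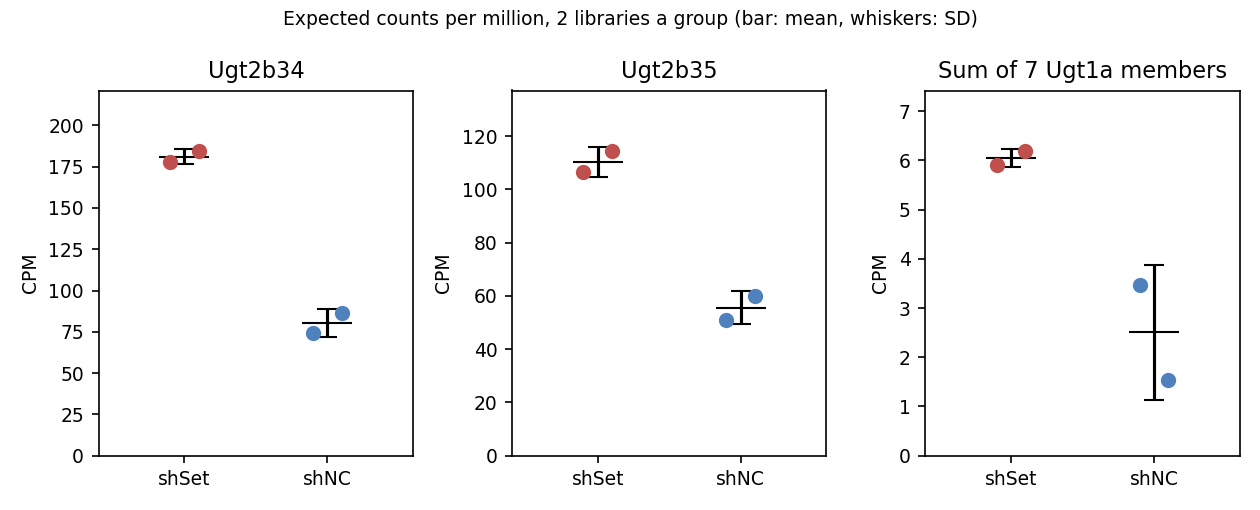
CPM of Ugt2b34, Ugt2b35 and the sum of the 7 Ugt1a members in the shSet knockdown (red) and shNC control (blue) libraries; points are libraries, bars means and whiskers SD (n = 2 each). In all 3 panels both knockdown libraries lie above both controls, and the Ugt1a controls differ most among themselves (3.47 and 1.54 CPM).

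The Ugt1a locus gave few reads. The 7 members summed to 116 and 121 expected counts in the knockdown libraries, against 68 and 30 in the controls. Each of the 4 sums was a whole number although 3 to 5 of the members were fractional in each library (more than 0.005 from a whole number), so the fractions cancelled within these 7 genes. Both knockdown sums exceeded both control sums. As exact Poisson 95% intervals, which cover counting error alone, the knockdown sums spanned 95.9 to 139 and 100 to 145 counts, and the control sums 52.8 to 86.2 and 20.2 to 42.8. The 2 controls thus differed from each other by more than counting error. The mean was 6.05 ± 0.191 CPM in knockdown cells and 2.50 ± 1.37 CPM in control cells, a ratio of 2.42, with no test made of the sum. Without control 1 the ratio was 3.93 and without control 2 it was 1.74.

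Within the locus, the reads assigned to Ugt1a6 stood out. Ugt1a6a and Ugt1a6b encode phenol-conjugating enzymes that act on small planar molecules, and Ugt1a6 is a known target of the aryl hydrocarbon receptor (AhR). Ugt1a6a had 44.2 and 37.38 counts in the knockdown libraries, against 11.46 and 0 in the controls. Ugt1a6b had 39.46 and 31.47 counts in the knockdown libraries, against 11.97 and 11.98 in the controls. Neither gene's groups overlapped, and the 0 of Ugt1a6a in control 2 stood beside 11.98 counts given to its near-copy, so it need not mean that no Ugt1a6a read was present. Ugt1a6a rose by a log2 fold change of 2.86 (SE 0.656, edgeR adjusted p = 0.03472, 95% interval 1.39 to 4.34). The call was lost with DESeq2 (adjusted p = 0.5375), with the older edgeR quasi-likelihood fit (0.05413) and on log2(TPM + 0.1) (0.1022). Its log2 fold change was 1.87 without control 2 and 8.35 without control 1, where the remaining control is at 0. Ugt1a6b rose by 1.55 (SE 0.381, adjusted p = 0.04536, 95% interval 0.69 to 2.40). The call was lost with DESeq2 (adjusted p = 0.1819), and leaving out knockdown 1, knockdown 2 or control 2 gave adjusted p-values of 0.1573, 0.05424 and 0.07411.

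The sum of Ugt1a6a and Ugt1a6b depends less on how reads were split between them. It was 83.66 and 68.85 counts in the knockdown libraries and 23.43 and 11.98 in the controls, or 3.89 ± 0.528 CPM in knockdown and 0.905 ± 0.411 CPM in control cells, a ratio of 4.30. Their exact Poisson 95% intervals did not overlap between the groups (67 to 104 and 53.7 to 87.3 counts in the knockdown libraries, 14.6 to 34.5 and 6.2 to 21 in the controls). As a share of the Ugt1a sum, Ugt1a6a and Ugt1a6b held 72.1% (exact binomial 95% interval 63.3% to 80.3%) and 56.9% (47.7% to 66%) in the knockdown libraries, and 34.5% (22.8% to 46.3%) and 39.9% (22.7% to 59.4%) in the controls. The intervals of knockdown 2 and control 2 overlap. Both kinds of interval cover counting error alone and leave out error in dividing reads among the genes. A transcript filed under Ugt1a7c holds an Ugt1a6a coding exon, so reads can also be divided between Ugt1a6a and Ugt1a7c.

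**Figure D3:**
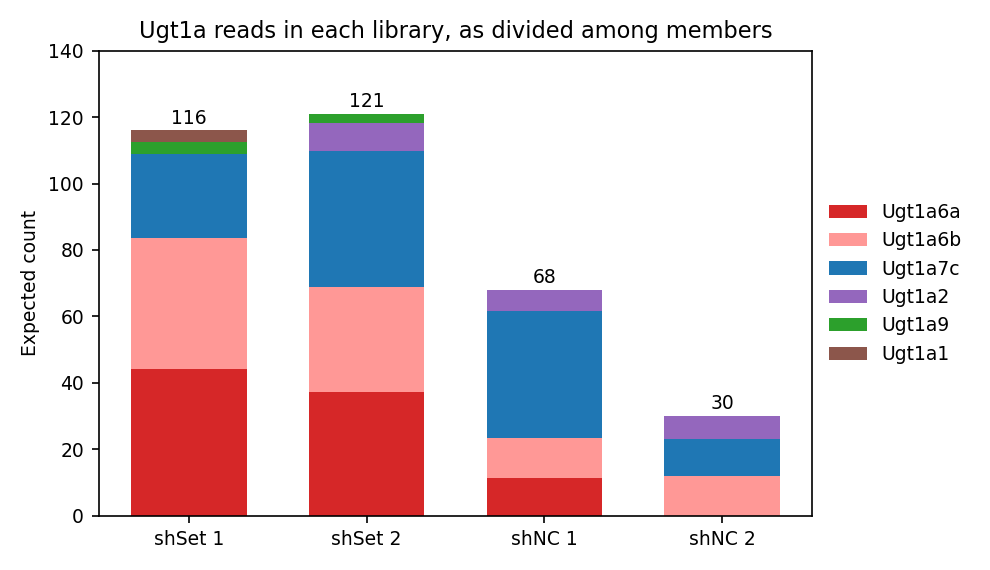
Expected counts of the Ugt1a members in each library, stacked to their sum, which is printed above each bar (116 and 121 in the knockdown libraries, 68 and 30 in the controls). Ugt1a6a and Ugt1a6b (red shades) fill most of the knockdown bars, and Ugt1a5, at 0 throughout, is not drawn.

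In counts, the rest of the Ugt1a locus did not separate the groups. Ugt1a7c had 25.13 and 40.85 counts in the knockdown libraries and 38.32 and 10.96 in the controls, so the groups overlapped. Its log2 fold change was 0.44 (adjusted p = 0.6845, 95% interval of the fold 0.608 to 3.02), and it was -0.21 without control 2. The abundance-weighted transcript length that the files give for Ugt1a7c was 1899.9 and 2407.68 bases in the knockdown libraries and 3231 bases in both controls, the length of its reference transcript, so its counts were assigned to different transcripts in the 2 groups. Without Ugt1a6a and Ugt1a6b, the other 5 Ugt1a members summed to 32.34 and 52.15 counts in the knockdown libraries and 44.57 and 18.02 in the controls, which overlap. In TPM, which divides by these lengths, the same 5 summed to 1.19 and 1.56 in the knockdown libraries and 1.04 and 0.48 in the controls, with no overlap.

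Ugt1a1, the enzyme that conjugates bilirubin, was near the limit of detection. It had 3.51 and 0 counts in the knockdown libraries and 0 and 0 in the controls. Ugt1a2 had 0 and 8.42 counts in the knockdown libraries and 6.25 and 7.06 in the controls, with overlap. Ugt1a9, which conjugates bulky phenols in humans, had 3.7 and 2.88 counts in the knockdown libraries and was listed at 0 in both controls. Ugt1a5 was at 0 in all 4 libraries. It has the same junction as Ugt1a2, so reads of Ugt1a5 could have been given to Ugt1a2, and no upper limit is given. None of these 4 was tested, and their fractional values rest on reads shared with the rest of the locus.

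Other UDP-glycosyltransferase genes contributed next to nothing. Of 12 further genes (Ugt1a8, Ugt1a10, the Ugt2a genes, other Ugt2b genes, Ugt3a1, Ugt3a2 and Ugt8a), 0 reached the test and 8 had 0 counts in every library. Ugt2b1 had 7 and 13 counts in the knockdown libraries and 10 and 5 in the controls, with overlap, and no other exceeded 2 counts. The annotation also holds Gm20528, a transcript antisense to much of the Ugt1a locus, which had 0 counts in all libraries, as had every one of the 12 annotated genes, Gm20528 included, that overlap the locus without being members. Near the Ugt2b genes, the pseudogene Gm5869 beside Ugt2b35 had 18.26 and 18.2 counts in the knockdown libraries and 16.12 and 7.25 in the controls. Ugt2b1, Gm20528 and Gm5869 were named after their values were seen.

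The nearest tested genes beside the clusters did not pass. On the right of the Ugt1a locus these were Mroh2a (7 kb away, log2 fold change 0.16, adjusted p = 0.7055) and Hjurp (42.5 kb, -0.01, adjusted p = 0.9812), and on the left Usp40 (62.2 kb, -0.03, adjusted p = 0.9319). Outside the Ugt2b cluster the nearest was Ythdc1 on the left (53.1 kb, -0.25, adjusted p = 0.3551), and the nearest on the right, Sult1b1, lay 420.8 kb away (0.65, adjusted p = 0.4902). Within 500 kb of the Ugt1a locus 2 of 11 tested genes passed in edgeR, against 5.96% of all tested genes. Within 500 kb of the Ugt2b cluster edgeR and DESeq2 each called 0 of 4, with 1 at an unadjusted p under 0.05 in edgeR. The 2 near the Ugt1a locus were Spp2, a secreted phosphoprotein, with 25 and 33 counts in the knockdown libraries and 1 and 0 in the controls, and the unnamed transcript Gm19589, with 106 and 128 counts in the knockdown libraries and 48 and 34 in the controls. All genes in this paragraph were named after their values were seen.

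The promoters of the members that rose are shown for comparison, as the 250 bases before the annotated start (RefSeq, GRCm38.p6). They lie at chr1:88134559-88134808 (plus strand) for Ugt1a6a, chr5:86906938-86907187 (minus strand) for Ugt2b34 and chr5:87000610-87000859 (plus strand) for Ugt2b35. For Ugt1a6a this is the start of the gene at 88134809, whereas the reference transcript described above begins downstream at 88138378. The bases before that transcript were not searched. Capitals mark matches to the motifs listed after them.
Ugt1a6a: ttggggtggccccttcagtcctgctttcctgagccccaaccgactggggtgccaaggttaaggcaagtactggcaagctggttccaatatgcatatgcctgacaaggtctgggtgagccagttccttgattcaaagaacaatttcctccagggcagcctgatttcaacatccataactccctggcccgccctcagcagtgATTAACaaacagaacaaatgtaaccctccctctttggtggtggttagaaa
Ugt2b34: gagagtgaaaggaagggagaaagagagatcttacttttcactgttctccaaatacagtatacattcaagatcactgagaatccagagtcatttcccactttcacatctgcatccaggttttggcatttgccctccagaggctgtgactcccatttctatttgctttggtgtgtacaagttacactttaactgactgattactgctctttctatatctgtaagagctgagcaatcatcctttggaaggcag
Ugt2b35: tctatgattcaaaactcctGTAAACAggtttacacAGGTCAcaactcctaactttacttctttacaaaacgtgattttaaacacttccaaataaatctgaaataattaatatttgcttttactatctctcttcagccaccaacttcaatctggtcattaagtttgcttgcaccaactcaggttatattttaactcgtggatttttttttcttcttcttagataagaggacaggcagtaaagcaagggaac
Motifs were searched on both strands by their letters: the core of the AhR element (GCGTG, found in 28.2% of 32851 promoters of this length), the antioxidant response element of Nfe2l2 (TGACNNNGC, 10.2%), an HNF1 half-site (GTTAAT, 6.43%), a nuclear receptor half-site (AGGTCA, 14.0%), a FOXA motif (TGTTTAC, 3.17%), a TATA box (TATAAA, 12.4%) and an E-box (CACGTG, 6.02%). None of these motifs contains another. Ugt1a6a held an HNF1 half-site 50 to 45 bases before its start, Ugt2b35 a FOXA motif and a nuclear receptor half-site, and Ugt2b34 none of the 7. Among the 9 members with a promoter in the table (Ugt1a6b had none), the HNF1 half-site was in Ugt1a1, Ugt1a6a and Ugt1a9 and the nuclear receptor half-site in Ugt1a7c, Ugt1a9, Ugt2b35 and Ugt2b36. The FOXA motif was in Ugt1a2 and Ugt2b35, the AhR core in Ugt1a5 and the other 3 motifs in no member. Of the other members that held a motif found in Ugt1a6a or Ugt2b35, Ugt1a7c was tested and not called. Ugt1a1, Ugt1a2, Ugt1a9 and Ugt2b36 had too few counts to test. A role of these motifs was not tested. The promoters of Ugt2b34 and Ugt2b35 were 48.5% identical, and those of Ugt1a members between 41.2% and 49.2%.

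Most genes listed for the supply of UDP-glucuronate did not pass. Of 10 genes on this list, 0 rose, 1 fell and 9 did not pass, with a median log2 fold change of -0.04. In edgeR 2 had an unadjusted p under 0.05, the gene that fell and Slc35b1 (log2 fold change 0.66, adjusted p = 0.05603). DESeq2 called 1 higher and 1 lower. The gene that fell, Slc35b4 (log2 fold change -0.69, SE 0.173, adjusted p = 0.04947), encodes a transporter of UDP-xylose and UDP-N-acetylglucosamine and not an enzyme of UDP-glucuronate synthesis. It had 41.89 and 49.98 CPM in the knockdown libraries and 83.83 and 65.39 CPM in the controls. In edgeR it did not pass with DESeq2's size factors (adjusted p = 0.05027), the older fit (0.05008) or a filter of 1 CPM in 2 libraries (0.05202). It also failed without a filter (0.2654), and with limma on log2(TPM + 1) (0.06392) and log2(TPM + 0.1) (0.06061). Its log2 fold change was -0.48 without control 1 and -0.56 without knockdown 1. Ugdh, the dehydrogenase that makes UDP-glucuronate, was at 474.4 and 502.5 CPM in the knockdown libraries and 505.2 and 510.5 CPM in the controls, and the 95% interval of its log2 fold change ran from -0.33 to 0.25. Ugp2, which makes UDP-glucose, had a log2 fold change of 0.28 (95% interval -0.01 to 0.58). Slc35b1, Ugdh and Ugp2 were named after their values were seen.

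Genes that export glucuronides, the gene that cleaves them and those that make bilirubin did not pass. Of the 6 exporters, edgeR called 0 in either direction (log2 fold changes -0.45 to 0.37), with 2 at an unadjusted p under 0.05 and 0 called by DESeq2. Gusb, the beta-glucuronidase that cleaves glucuronides, had a log2 fold change of -0.22 (unadjusted p = 0.107, adjusted p = 0.3441) and was not called. The list of cleavage genes also held Klb, an FGF co-receptor related to glycosidases by sequence and not an enzyme that cleaves glucuronides (1.64, unadjusted p = 0.005716, adjusted p = 0.07241). Of the 4 genes from haem to bilirubin edgeR called 0, with 0 at an unadjusted p under 0.05; DESeq2 called 0 on the cleavage and haem lists. Sulfation is a parallel route of conjugation, and of 8 sulfotransferases 3 were tested, with 0 called by edgeR or DESeq2 and 2 at an unadjusted p under 0.05 in edgeR. Papss1 and Papss2, which make the sulfate donor, were called by neither tool, and 1 of them had an unadjusted p under 0.05. Gusb, Klb, Papss1 and Papss2 were named after their values were seen.

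Among regulators of these genes, Hnf4a alone was called. Of 17 regulators 13 were tested, 0 rose, 1 fell and 12 did not pass (median log2 fold change 0.08). Hnf4a, a nuclear receptor that drives hepatocyte genes, had 163.2 and 142.9 CPM in the knockdown libraries and 229.6 and 237.5 CPM in the controls (log2 fold change -0.60, SE 0.132, adjusted p = 0.03017). It did not pass without knockdown 2 (adjusted p = 0.1412). Ahr itself had 69.08 and 77.72 CPM in the knockdown libraries and 113.1 and 86.09 CPM in the controls (log2 fold change -0.43, adjusted p = 0.1775). The xenobiotic receptor Nr1i2 (PXR) had 1 and 0 counts in the knockdown libraries and 0 and 0 in the controls, and Nr1i3 (CAR) had 14.47 and 14.34 counts in the knockdown libraries and 9.73 and 8.51 in the controls. Ahr, Nr1i2, Nr1i3 and, among the genes that follow, Ahrr were named after their values were seen.

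Of 6 AhR target genes 4 were tested, of which 2 rose, 0 fell and 2 did not pass in edgeR, while DESeq2 called 2 higher and 1 lower. Cyp1a1, an inducible P450 enzyme, had 78.97 and 65.97 CPM in the knockdown libraries and 42.14 and 40.69 CPM in the controls (log2 fold change 0.82, SE 0.149, adjusted p = 0.01221). Nqo1, a quinone reductase that is also a target of Nfe2l2, had 10.4 and 15.89 CPM in the knockdown libraries and 5.255 and 2.05 CPM in the controls (log2 fold change 1.86, SE 0.380, adjusted p = 0.02105). The log2 fold change of Nqo1 was 2.71 without control 1 and 1.32 without control 2. With limma on log2(TPM + 1), the adjusted p was 0.05919 for Cyp1a1 and 0.07554 for Nqo1. The other 2 tested genes, named after their values were seen, had log2 fold changes of 1.80 for Cyp1b1 (adjusted p = 0.06397) and -0.64 for Tiparp (adjusted p = 0.05782). The AhR repressor Ahrr, listed among the regulators and not tested, had 0 and 3 counts in the knockdown libraries and 10 and 14 in the controls.

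**Figure D4:**
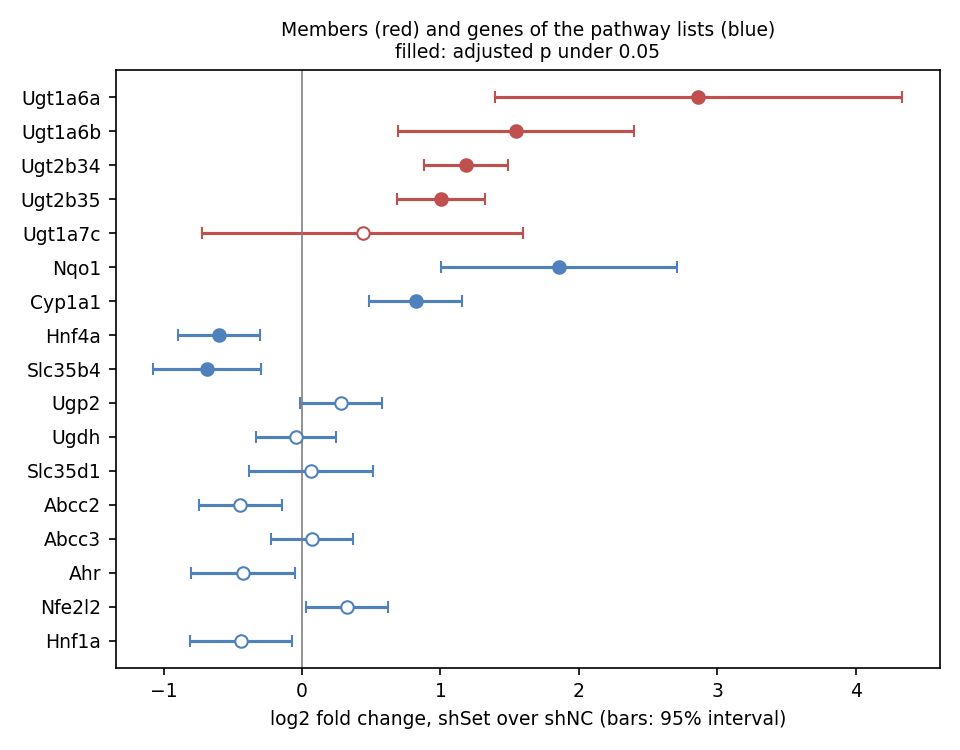
Log2 fold change, shSet over shNC, with its 95% interval for the 5 tested members (red) and, in blue, the 4 called genes of the pathway lists and 8 further list genes chosen for their role after their values were seen; filled points have an edgeR adjusted p under 0.05. The intervals of Ugt2b34 and Ugt2b35 are the narrowest among the members, and that of Ugt1a7c spans 0.

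Over 4 libraries, the genes whose profile was most like that of Ugt2b34 were Entpd7, Rrad, Itm2c, Tmed10 and Neurl3, by Euclidean distance between centred log2 CPM values (distances 0.074 to 0.156, 9508 genes averaging 5 CPM or more were compared). Entpd7, a nucleotide-hydrolysing enzyme, had 75.39 and 74.43 CPM in the knockdown libraries and 29.89 and 34.06 CPM in the controls. For the Ugt1a sum they were Cdc42ep3, Tmem130, Cd83, Fzd1 and Cldn1 (distances 0.299 to 0.416), all with control 1 above control 2. A profile over 4 libraries in 2 groups is a description and says nothing of shared function.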

How the data were processed

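Total RNA was extracted with a QIAGEN RNeasy kit and made into libraries with a directional NEBNext kit, per the labels' protocols. Per the submitters' processing notes, the tools were RSEM, STAR, DESeq2 and FastQC and the builds mm10 and GRCm38, without versions or roles. Which annotation release and strand setting were used is not given in the sources used here. Per the file headers, each deposited file gives expected counts (estimates of reads per gene, reads that match several genes being divided among them), TPM and FPKM values and transcript lengths; the deposited FPKM were not used, and tests used the counts because TPM keep no depth.

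Of 115821 rows, 54838 are genes, of which 53861 matched GENCODE M21 with their version. Expected counts were rounded for testing, and the total of every row of a library was its size. The test was the quasi-likelihood F-test of edgeR 4.0.16 (R 4.3.3) with TMM scaling, the filterByExpr filter and group as the only term; Benjamini-Hochberg adjustment ran over all 12821 genes tested, with a threshold of 0.05. Standard errors came from the F statistic. With 2 libraries a group, the smallest p an exact permutation test allows is 0.333, so none was used. Libraries of a group were not 1 library deposited again: the chi-square of their counts was 23.6 per gene for the knockdown pair and 26 for the control pair. In 3 simulations for the 12821 genes of this comparison, 200 genes were changed. The test recovered 71.7% of the genes changed 2-fold and 95% of those changed 4-fold, with 2.33% of its calls false. These rates describe the simulated data and are not the error rate of the calls made here. CPM are counts over the library total. Alternatives were other size factors, filters and fits, DESeq2 1.42.0, limma 3.58.1 on log2 TPM, a replicate block and leaving out each library. First exons were aligned with Biopython 1.88. The members and lists were chosen with earlier results of these data known. The text names all members, Setdb1, called genes of the pathway lists and the 5 genes nearest in profile to Ugt2b34 and to the Ugt1a sum; all other genes, markers included, were named after their values were seen.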

Additional observations from a re-analysis of the deposited data

How the results depend on the processing

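Of 15 alternatives, 1 of them chosen after seeing the data, Ugt2b34 and Ugt2b35 passed in 14. Their log2 fold changes were 1.10 to 1.28 and 0.91 to 1.11. The exception was edgeR without a filter on low counts, which called 0 of 21511 genes, 0 members and 0 pathway genes (3378, 5 and 19 with an unadjusted p under 0.05; DESeq2 called 896, 2 and 6). There Ugt2b34 was at 1.178 (adjusted p = 0.0945), Ugt2b35 at 0.996 (0.1381), Ugt1a6a at 2.854 (0.2654) and Ugt1a6b at 1.537 (0.1923). Ugt1a6a also failed in the older edgeR fit (2.861), in DESeq2 (2.877) and on log2(TPM + 0.1) (2.655). Ugt1a6b also failed with a filter of 1 CPM in 2 libraries (1.543, adjusted p = 0.05589), in DESeq2 (1.552) and on log2(TPM + 1) (0.596) and log2(TPM + 0.1) (1.302). Members called numbered 2 in DESeq2 and on log2(TPM + 0.1). On log2(TPM + 1) and log2(TPM + 0.1) limma called 334 and 327 genes and 1 pathway gene in each. The causes were not tested.

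Leaving out 1 library at a time gave log2 fold changes of 1.099 to 1.278 for Ugt2b34, 0.906 to 1.108 for Ugt2b35, 1.866 to 8.351 for Ugt1a6a, 1.378 to 1.697 for Ugt1a6b and -0.205 to 1.596 for Ugt1a7c, the negative value without control 2. It gave 740 to 1676 called genes, the most without control 1, 5 to 9 pathway genes and 3 to 4 members. The log2 ratio of the Ugt1a sum ranged from 0.802 to 1.976 (1.976 without control 1) and that of the Ugt2b sum from 0.995 to 1.214. A fit that leaves 1 library in a group assumes that it varies like the other group.

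The deviations of same-numbered libraries from their group means correlated weakly across genes (r = -0.182). With 2 libraries a group this value cannot show whether the numbers mark pairs. No label states pairs, and the main fit took none. With the replicate number as a block, 862 genes, 4 members and 7 pathway genes were called (584 and 278, 4 and 0, and 5 and 2, higher and lower). With the numbers crossed, an alternative chosen after seeing the data, 2339 genes, 4 members and 14 pathway genes were called. Ugt1a members rest on 30 to 121 reads per library, which limits what can be said of any one of them.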
